A study of Homo sapiens with 10 samples.

Results

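Genes of death receptor signalling and of caspases were examined in HepG2 cells, a human hepatoma line. Through tunicamycin treatment 8 were followed: TNFRSF10A, TNFRSF10B, TNFRSF10D, FAS, CASP4, CASP8, CASP9 and CFLAR. They were taken by symbol from a table of 32738 genes, each symbol matched 1 row, and all 8 belonged to the 12733 genes tested, those left after genes with very few counts were removed (edgeR's filterByExpr, set to 2 counts at the median library size and 10 in total). The control cells were mock treated with regular growth medium for 17 h, and the treated cells received medium with 2 µg/ml tunicamycin, an inhibitor of N-linked glycosylation that causes endoplasmic reticulum (ER) stress, for the same time. Each condition had 5 libraries, made from the 3′ ends of mRNAs, and the replicate experiments were done on separate days, so that a replicate number joins a control and a treated library. No vehicle control is named in the labels, and all libraries come from a single cell line for which no genetic modification is named.

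Death receptors are members of the tumour necrosis factor (TNF) receptor superfamily that carry a death domain on the inside of the cell. TRAIL, the product of TNFSF10, binds DR4 (TNFRSF10A) and DR5 (TNFRSF10B), which signal, and the decoy receptors DcR1 (TNFRSF10C) and DcR2 (TNFRSF10D), which lack a working death domain. Bound receptors recruit the adaptor FADD and through it caspase-8, while c-FLIP, the product of CFLAR, resembles caspase-8 without its protease activity and competes for FADD. In ER stress the TNFRSF10B gene is known as a target of the transcription factor CHOP, and unliganded DR5 can gather and activate caspase-8 inside the cell.

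The libraries held 2234682 to 5029864 counts, and tunicamycin replicate 5 was the smallest. The treatment was visible in HSPA5, the ER chaperone BiP, with a log2 fold change of 2.97 (standard error 0.08) in edgeR's quasi-likelihood test. All 9 hepatocyte markers listed for HepG2 were found, 5 of them (APOA1, APOB, TTR, FGB and TF) lower with tunicamycin, with ALB at 11214 ± 1760 normalized counts in control cells, whereas PTPRC, CD3E and COL1A2, markers of leukocytes, T cells and fibroblasts, had no count. LYVE1, COL1A1 and KRT7 had 4 or 5 counts in all libraries together, and CD68 and ACTA2 were the markers of other cells with enough counts to be tested. CD68 fell from 27.8 ± 7.35 to 15.6 ± 6.61 normalized counts (edgeR adjusted p = 0.0319), and its part in the other results was not tested. Values with ± are means and SD over the 5 libraries of a condition (n = 5). Normalized counts are counts divided by the library size after edgeR's TMM scaling and multiplied by its mean. A 3′ library gives about one fragment per transcript, so that these counts were compared between genes without division by length. Differences between genes in their 3′ ends and in sequence shared with other genes were not corrected for. Comparisons of levels between genes are therefore approximate. In a bulk sample, fewer cells that express a gene and less of its RNA per cell cannot be told apart.

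With tunicamycin, TNFRSF10B, TNFRSF10D, CASP8 and CASP4 rose, and none of the 8 genes fell. The 4 of 8 called genes, or 50%, stand beside 34.2% called in either direction among all tested genes (Benjamini-Hochberg adjusted p below the 0.05 threshold, edgeR), made up of 17.6% higher and 16.6% lower. The same 4 genes had control and tunicamycin libraries that did not overlap, which was the case for 23.5% of all tested genes. The median log2 fold change of the 8 genes was 0.42, and that of all tested genes was -0.0033. The number of called genes among the 8 was between 3 and 5 in the alternative analyses, and the 8 genes were chosen with earlier results of these data known, so that these counts describe the genes and are no test of them as a set.

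Of the 4 receptors among the 8 genes, DR5 had the largest change. Control replicates 1 to 5 had 195, 243, 314, 344 and 387 normalized counts of TNFRSF10B, and tunicamycin replicates 1 to 5 had 490, 571, 516, 648 and 650. The lowest treated library thus lay above the highest control library, although the control libraries themselves spread over almost a doubling. TNFRSF10B rose 1.93-fold (log2 fold change 0.95, standard error 0.15, edgeR adjusted p = 5.7e-05), which placed its log2 fold change above that of 93.2% of the tested genes. Within the replicate pairs the log2 ratio was between 0.72 and 1.32, and it was largest in replicate 1, where the control level was lowest. An exact permutation test of 5 against 5 libraries gave a two-sided p of 0.00794, the smallest that free exchange of the libraries allows. Any gene whose conditions do not overlap gets this value from the permutation test, so that it restates the lack of overlap. This test does not use the pairing by day, and with exchange only within the 5 pairs an exact test could not go below 0.0625. The call was kept in all 19 alternative analyses.

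DcR2, a decoy receptor for TRAIL, rose as well. TNFRSF10D had 102, 141, 180, 171 and 155 normalized counts in the control libraries, replicates 1 to 5 in order, and 189, 223, 229, 220 and 212 under tunicamycin. The conditions did not overlap, with control replicate 1 the lowest of all libraries. The log2 fold change was 0.52 (standard error 0.13, edgeR adjusted p = 0.00511, exact permutation p = 0.00794), and the call was kept in all 19 alternative analyses.

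DR4, the other signalling receptor for TRAIL, did not differ detectably. TNFRSF10A had 353, 366, 285, 304 and 292 normalized counts in the control libraries, replicates 1 to 5 in order, and 337, 426, 310, 294 and 278 under tunicamycin. The conditions overlapped almost entirely, and the treated library was above its control partner in 2 of 5 pairs. The log2 fold change was 0.05 with a 95% interval from -0.20 to 0.29 (edgeR adjusted p = 0.785), which does not include the estimates for TNFRSF10B and TNFRSF10D, although the difference between the receptors was not tested.

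The fourth gene of this group, TNFRSF10C, encodes the decoy DcR1 and is not among the 8. It had 13.4 to 25.0 normalized counts in control libraries and 5.50 to 16.1 in tunicamycin libraries, and it fell 2.01-fold (standard error 0.32 on the log2 scale, edgeR adjusted p = 0.0213), against the rise of TNFRSF10D. The call was lost in 4 of 10 fits that left out a library, without control replicate 1 or 5 or tunicamycin replicate 3 or 4, with adjusted p up to 0.0635. It was also lost in DESeq2 with the replicate block (0.0603) and after thinning to the smallest library, where the log2 fold change was -0.46 (edgeR adjusted p = 0.425).

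The 4 genes lie together on chromosome 8, and their summed level was 786 ± 72.5 normalized counts in control and 1129 ± 82.3 in tunicamycin libraries. TNFRSF10B made up 37.3% ± 6.70 of this sum in control libraries, with a range of 28.9% to 45.1%, and 50.9% ± 4.63 in tunicamycin libraries, with a range of 46.4% to 56.2%. The ratio of both signalling receptors to both decoys was 3.69 ± 0.488 in control and 4.03 ± 0.299 in tunicamycin libraries and overlapped between them. The share of TNFRSF10B therefore did not overlap between the conditions, whereas the ratio of signalling to decoy receptors did. These sums and ratios are given without a test.

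**Figure D1:**
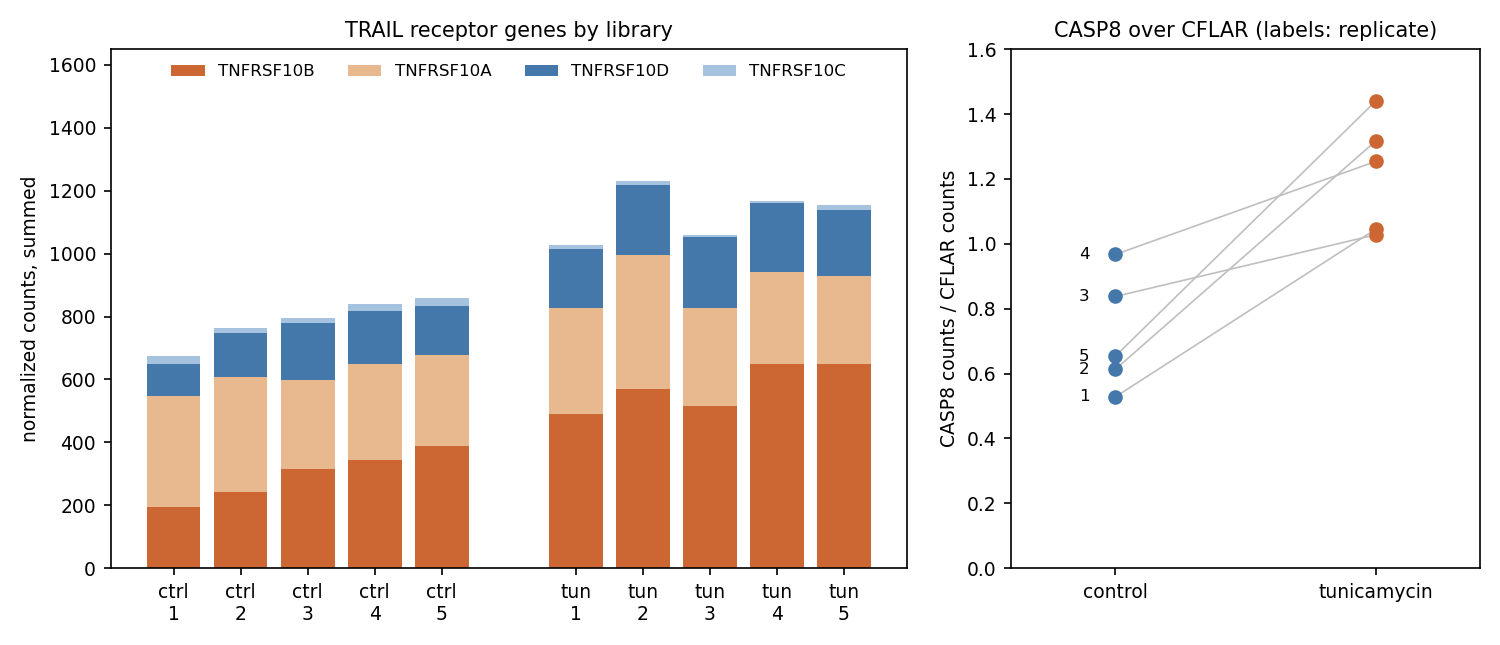
Left, normalized counts of the 4 TRAIL receptor genes stacked for each control (ctrl) and tunicamycin (tun) library, replicates 1 to 5; right, CASP8 counts divided by CFLAR counts in each library, with lines joining libraries of the same replicate number. The TNFRSF10B part of the stack is larger in every tunicamycin library than in any control library, and the ratio of CASP8 to CFLAR lies between 0.528 and 0.967 in control and between 1.03 and 1.44 in tunicamycin libraries.

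FAS, the receptor for FAS ligand, was low in these cells. It had 43.9, 25.9, 47.2, 36.7 and 38.6 normalized counts in the control libraries, replicates 1 to 5 in order, and 35.5, 34.7, 35.9, 41.2 and 42.4 under tunicamycin. All treated libraries fell inside the range of the control libraries. The log2 fold change was -0.04 with a 95% interval from -0.44 to 0.36 (edgeR adjusted p = 0.897), so that a change within this interval remains possible. FAS shares exonic sequence with ACTA2 on the opposite strand, which had 138 ± 26.6 normalized counts in control and 106 ± 44.2 in tunicamycin libraries. This overlap does not lie within 500 bases of an annotated 3′ end of FAS, where these libraries are read.

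CASP8 encodes caspase-8, the initiator protease that death receptors activate. It had 305, 342, 380, 426 and 371 normalized counts in the control libraries, replicates 1 to 5 in order, and 435, 577, 529, 596 and 601 under tunicamycin. Every treated library was above every control library, with tunicamycin replicate 1 closest to them. CASP8 rose by 0.58 on the log2 scale (standard error 0.11, edgeR adjusted p = 0.000343, exact permutation p = 0.00794), and the log2 ratio within pairs was between 0.48 and 0.75. The call was kept in all 19 alternative analyses.

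Because CASP8 had the smallest adjusted p of the 3 caspases among the 8 genes and the study examined AP-1 elements at another gene, the start regions in RefSeq (GRCh38.p14) were searched for 4 short motifs on both strands. These regions cover 250 bases before to 50 bases after a start, and 13 of them belong to 5 of the 8 genes: FAS, CASP4, CASP8, CASP9 and CFLAR. The AP-1 site TGAGTCA was found at 2 of the 3 starts of CASP8 and at no other of these 13 regions, and 4.95% of all 35116 regions hold it. The composite C/EBP-ATF site TGATGCAA (0.866% of all regions), the unfolded protein response element TGACGTG (1.97%) and the cyclic AMP response element TGACGTCA (1.85%) were found in none of the 13. The first CASP8 site begins 1 base before a start at chr2:201258025-201258050, and the second 61 bases before another start at chr2:201260466-201260491, both on the plus strand. They are shown here 5′ to 3′ with the AP-1 motif in capitals, in the second as its reverse complement:
CASP8 site 1: ttgttcgagTGAGTCAtctctgttct
CASP8 site 2: tagtgtttgTGACTCAggagtttcga
A match of letters is not a measurement of binding, and 3′ libraries do not show which start a CASP8 transcript came from.

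CFLAR, the inhibitor of caspase-8 activation, did not rise with CASP8. It had 577, 558, 453, 440 and 567 normalized counts in the control libraries, replicates 1 to 5 in order, and 416, 438, 515, 475 and 418 under tunicamycin. The values overlapped, with the treated library lower than its partner in replicates 1, 2 and 5 and higher in replicates 3 and 4. The log2 fold change was -0.20 with a 95% interval from -0.41 to 0.02 (edgeR adjusted p = 0.143). With library size as the only scaling, CFLAR was called lower, with a log2 fold change of -0.28 and an adjusted p of 0.0418.

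In each library the ratio of CASP8 to CFLAR counts was below 1 without tunicamycin, at 0.528, 0.613, 0.838, 0.967 and 0.654 in replicates 1 to 5. With tunicamycin it was above 1, at 1.05, 1.32, 1.03, 1.25 and 1.44. This ratio does not depend on how the libraries were scaled, it was higher with tunicamycin in 5 of 5 pairs, and the nearest values of the conditions were 0.967 and 1.03. CFLAR has 13 separate annotated 3′ ends for its 17 protein-coding transcripts, which include the long and short forms of c-FLIP, and the counts do not tell these forms apart.

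CASP4, an inflammatory caspase of the caspase-1 group that has also been linked to ER stress in human cells, changed least among the 4 genes that rose. It had 166, 166, 150, 177 and 146 normalized counts in the control libraries, replicates 1 to 5 in order, and 222, 192, 193, 199 and 196 under tunicamycin. The libraries did not overlap, and both conditions were tight, with an SD of 12.6 in each. The log2 fold change was 0.32 (standard error 0.10, edgeR adjusted p = 0.0202, exact permutation p = 0.00794), which is a rise of 1.25-fold. The call was lost without control replicate 5 (adjusted p = 0.0549), without tunicamycin replicate 1 (0.0594), with library size as the only scaling (0.118) and in DESeq2 with the replicate block (0.0619), while the log2 fold change stayed positive at 0.24 or more.

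CASP9, the initiator caspase of the mitochondrial pathway, was the least abundant of the 8 genes. It had 2, 10, 20, 26 and 20 raw counts in control replicates 1 to 5, or 1.72, 8.92, 17.5, 23.3 and 20.3 normalized counts. Tunicamycin replicates 1 to 5 had 31, 24, 33, 23 and 11 raw counts, or 26.2, 23.8, 31.2, 31.6 and 22.2 normalized counts. The control libraries spread more than 10-fold while the treated libraries were close together, and the conditions overlapped only because control replicate 4 exceeded tunicamycin replicate 5.

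The log2 fold change of CASP9 was 0.93 (standard error 0.37) and did not pass the threshold in edgeR's test without the block (adjusted p = 0.0616). With the replicate block, in which days are compared within themselves, it was 1.06 and passed (adjusted p = 0.0166), as it did in DESeq2 (0.0457), in DESeq2 with the block (0.0244), without control replicate 4 (0.0279), with no filter (0.0421) and after thinning to the smallest library (0.0227). It was higher in 5 of 5 pairs, but the log2 ratio ran from 3.59 in replicate 1, where it rests on 2 counts, to 0.12 in replicate 5. Without control replicate 1 the log2 fold change was 0.64 (edgeR adjusted p = 0.0901).

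**Figure D2:**
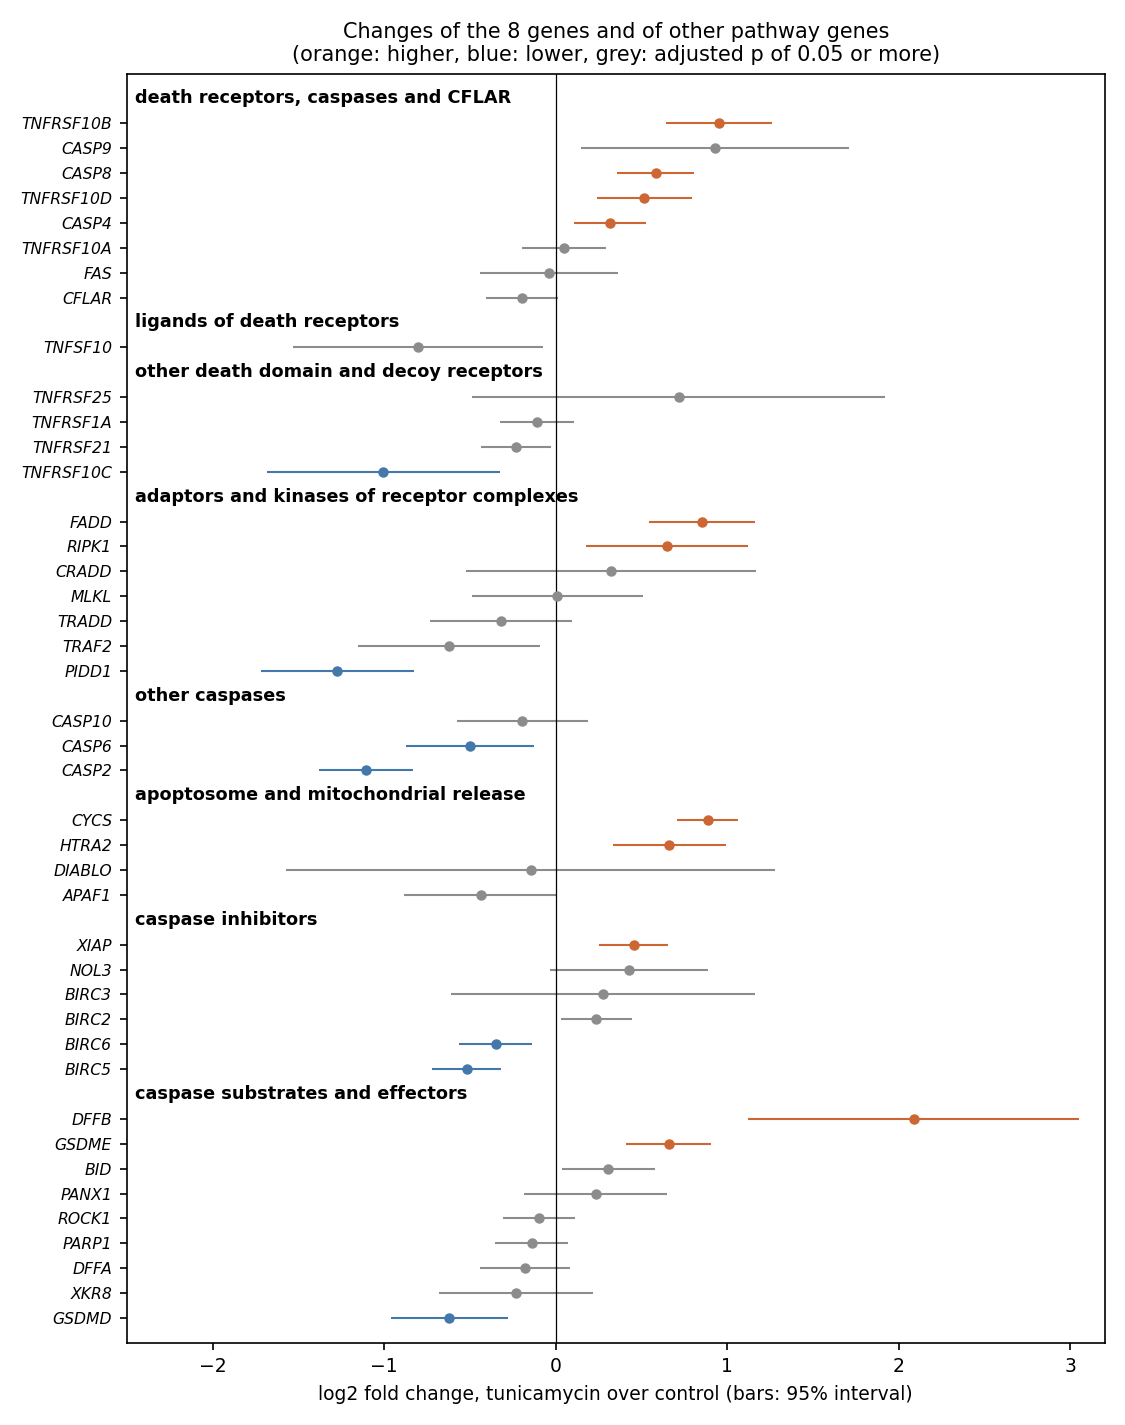
Log2 fold change of tunicamycin over control (horizontal axis) with its 95% interval for the 8 genes and the tested genes of 7 pathway lists; orange marks genes called higher and blue genes called lower (edgeR, adjusted p below 0.05), grey the others. DFFB lies farthest to the right, at 2.09 with the widest of the called intervals, and PIDD1 farthest to the left, at -1.27.

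The order of the levels changed with treatment. In control libraries CFLAR was highest (519 ± 66.7 normalized counts) and did not overlap with CASP8, the next (365 ± 44.9). CASP8, TNFRSF10A and TNFRSF10B (297 ± 77.4) each overlapped with the neighbour in this order, as did CASP4 (161 ± 12.6) and TNFRSF10D (150 ± 30.5), while FAS (38.5 ± 8.19) and CASP9 (14.4 ± 8.87) each stood apart at the bottom. In tunicamycin libraries TNFRSF10B (575 ± 73.7) and CASP8 (548 ± 69.1) headed the order and overlapped with each other and with CFLAR (452 ± 42.3). Below them came TNFRSF10A (329 ± 58.2), which overlapped with CFLAR. TNFRSF10D (215 ± 15.4) and CASP4 (200 ± 12.6) followed and overlapped with each other. FAS (37.9 ± 3.57) and CASP9 (27.0 ± 4.26) again came last and did not overlap.

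Several of these genes also varied together between libraries of the same condition. After the mean of each condition was subtracted, TNFRSF10B moved with TNFRSF10D (Pearson's r = 0.767 over 10 libraries), CASP8 (0.795) and CASP9 (0.83), and TNFRSF10D moved with CASP9 (0.903) and CASP8 (0.752). CFLAR had negative r with each of these 4 genes, between -0.463 and -0.37. So did CASP4, between -0.421 and -0.199, and TNFRSF10A, between -0.573 and -0.38. The most negative r were those of TNFRSF10A with TNFRSF10B (-0.573), with FAS (-0.551) and with CASP9 (-0.468), and the other r of FAS lay between -0.318 and 0.223. Control replicate 1 was the lowest control library for TNFRSF10B, TNFRSF10D, CASP8 and CASP9 and the highest for CFLAR. For CASP9 this library had only 2 raw counts, so that the r values of CASP9 lean on a value near 0. They were not computed without it. The points share their library and their day, and these r are a description with no test. The part of the day or of other properties of a library in this pattern was not tested.

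Over all 10 libraries, the genes whose levels followed TNFRSF10B most closely were FAM174A (Pearson's r = 0.9899 of log2 library-scaled counts), MARS (0.9883) and SEP15 (0.9867), among the 9707 genes whose mean was 20 normalized counts or more. MARS encodes the cytosolic methionyl-tRNA synthetase and SEP15 a selenoprotein of the ER. Their log2 fold changes were 1.17, 0.85 and 1.33. They were picked as the highest of many r values, so that the r has no test. The means of the conditions were not subtracted here, so that a shared rise with tunicamycin enters these r.

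Of 8 genes of the ER stress response, 6 rose, 1 fell and 1 did not pass the test, beside the 34.2% called among all genes. Their part in the changes of the receptor genes was not tested. DDIT3, which encodes CHOP, rose from 159 ± 19.5 to 424 ± 58.5 normalized counts (log2 fold change 1.42). PPP1R15A (log2 fold change 1.52), ERN1 (1.34), TRIB3 (0.80), ATF6 (0.73) and EIF2AK3 (0.47) rose as well. XBP1 fell (-1.01), and ATF4 had a log2 fold change of -0.03 (edgeR adjusted p = 0.824). These values are mRNA levels, and the counts show neither the amount of a protein nor the splicing of XBP1. By immunoblot, the study found more ATF4 protein in HepG2 cells after tunicamycin, at a slightly higher dose than for these libraries.

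Further genes of death receptors, caspases and cell death were described with 7 lists of 48 genes, of which 34 passed the filter, 7 rose and 7 fell. This is 41.2% called, beside 34.2% of all tested genes, with a median log2 fold change of -0.12. The lists are short, so that the counts of each describe its genes and are no test. Ligands were low. TNFSF10, which encodes TRAIL, had 15.4 ± 1.77 normalized counts in control and 9.60 ± 6.05 in tunicamycin libraries (log2 fold change -0.80, edgeR adjusted p = 0.0829), and without tunicamycin replicate 5 it was called lower (-1.12, adjusted p = 0.0144). FASLG, TNF, LTA and TNFSF15 had between 1 and 5 counts in all libraries together and were not tested.

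Of 8 further receptors, TNFRSF10C was the only one called among 4 tested, or 25%, beside 34.2% of all tested genes. TNFRSF1A, the main TNF receptor (219 ± 17.9 normalized counts in control libraries), TNFRSF21 and TNFRSF25 had log2 fold changes of -0.11, -0.23 and 0.72 with edgeR adjusted p of 0.446, 0.0728 and 0.36, and with library size only TNFRSF21 was called lower (adjusted p = 0.0179). NGFR had 4 counts in all, and EDAR, TNFRSF11B and TNFRSF6B had no count in any library. A count of 0 in a single library leaves room for an expected count of up to about 3. Where all libraries have 0, the room per library is smaller.

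Among adaptors and kinases, 2 of 7 tested genes rose and 1 fell, or 42.9% called, beside 34.2% of all tested genes. FADD, which links the receptors to caspase-8, rose from 65.9 ± 9.61 to 120 ± 18.8 normalized counts without overlap (log2 fold change 0.86, edgeR adjusted p = 0.000173). RIPK1, a kinase of the TNF receptor complex, rose by 0.65 on the log2 scale, a call that was lost in 5 of 10 fits that left out a library (control replicate 1 or 2, tunicamycin replicate 2, 3 or 5, adjusted p up to 0.0936) and with library size only (0.0575). PIDD1, a platform for caspase-2, fell from 56.8 ± 13.6 to 24.2 ± 6.12 normalized counts (log2 fold change -1.27). TRAF2 had a log2 fold change of -0.62 and was called in edgeR with the replicate block (adjusted p = 0.0345) but not without it (0.0662) or in DESeq2 with the block (0.118), and it was also called with library size only (0.0363) and without control replicate 4 (0.017) or tunicamycin replicate 5 (0.0424). TRADD (-0.32), MLKL (0.01) and CRADD (0.32) did not pass the test, and RIPK3, the kinase of necroptosis, had no count in any library.

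Of 3 other caspases tested, none rose and 2 fell, or 66.7% called, beside 34.2% of all tested genes. CASP2, the partner of PIDD1, fell from 251 ± 45.0 to 117 ± 14.3 normalized counts (log2 fold change -1.10, edgeR adjusted p = 2.82e-06) without overlap. CASP6 fell from 96.6 ± 9.98 to 70.8 ± 23.1, but this call was kept in only 3 of the 10 fits that left out a library, those without control replicate 1 or tunicamycin replicate 4 or 5. The initiator CASP10, which lies next to CASP8, had a log2 fold change of -0.19 (edgeR adjusted p = 0.438). CASP1 had 10 counts in all, and CASP5, CASP12 and CASP14 had none.

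Of 4 genes of the apoptosome and of mitochondrial release, 2 rose, or 50% called, beside 34.2% of all tested genes. CYCS, cytochrome c, rose from 711 ± 47.6 to 1316 ± 110 normalized counts (log2 fold change 0.89, edgeR adjusted p = 2.04e-07), and HTRA2, a mitochondrial protease, by 0.66 on the log2 scale. APAF1, the scaffold that activates caspase-9, had a log2 fold change of -0.44 (adjusted p = 0.122), and that of DIABLO had a 95% interval from -1.57 to 1.28. Among 6 tested inhibitors of caspases, 50% were called, beside the same 34.2% of all tested genes. XIAP rose (log2 fold change 0.45), while BIRC5 (-0.52), which is survivin and also serves in mitosis, and BIRC6 (-0.35) fell. BIRC2 (0.24), BIRC3 (0.28) and NOL3 (0.43) did not pass the test, although BIRC2 did without tunicamycin replicate 4 (adjusted p = 0.0174), and BIRC7 was not tested.

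Of 9 substrates and effectors of caspases, 2 rose and 1 fell, or 33.3% called, beside 34.2% of all tested genes. DFFB, the nuclease that cuts DNA in apoptosis, rose from 10.9 ± 8.21 to 47.8 ± 19.4 normalized counts (log2 fold change 2.09, standard error 0.46, edgeR adjusted p = 0.0016). Its inhibitor DFFA had a log2 fold change of -0.18 (adjusted p = 0.296). GSDME, a pore-forming protein that caspases can cut, rose (0.66), and GSDMD, the pore-forming protein cut by caspase-4, fell from 76.0 ± 12.1 to 50.3 ± 7.61 normalized counts (-0.62, edgeR adjusted p = 0.00591). BID, which caspase-8 cuts to engage mitochondria, had a log2 fold change of 0.31 that was called in edgeR with the replicate block (adjusted p = 0.0454) but not without it (0.0747) or in DESeq2 with the block (0.115), and it was also called without tunicamycin replicate 3 (0.0474). PARP1 (-0.14), ROCK1 (-0.10), PANX1 (0.23) and XKR8 (-0.23) did not pass the test.

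By their Ensembl identifiers, the genes were placed in the GENCODE annotation of GRCh38. There TNFRSF10B (ENSG00000120889) lies on chromosome 8 from 23020133 to 23069031, TNFRSF10D (ENSG00000173530) from 23135588 to 23164027 and TNFRSF10A (ENSG00000104689) from 23190452 to 23225102, all on the minus strand. CFLAR (ENSG00000003402) and CASP8 (ENSG00000064012) lie close together, on either side of CASP10, on the plus strand of chromosome 2, from 201116154 to 201176687 and from 201233443 to 201361836. FAS (ENSG00000026103) lies on chromosome 10 from 88953813 to 89029605 on the plus strand. CASP4 (ENSG00000196954) lies on chromosome 11 from 104942866 to 104969366 and CASP9 (ENSG00000132906) on chromosome 1 from 15490832 to 15526534, both on the minus strand.

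The counting was run with default settings of its pipeline and no strand option is named. Reads from overlapping genes on opposite strands may thus not be told apart. The overlaps and 3′ ends given here are from GENCODE on GRCh38, whereas reads were counted on hg19 with Ensembl definitions. Whether each overlap was part of the annotation used for counting was not checked. Within 500 bases of an annotated 3′ end, where these libraries are read, exons of TNFRSF10B overlap those of RHOBTB2, which fell from 75.5 ± 19.4 to 26.8 ± 5.65 normalized counts while TNFRSF10B rose. Those of CASP9 overlap CELA2B, which had no count, and those of CFLAR overlap CFLAR-AS1, which had 1 count in all. TNFRSF10A overlaps the noncoding gene TNFRSF10A-AS1 there, whose level was not analysed here. TNFRSF10D, CASP4 and CASP8 have no overlap on the opposite strand, but CASP8 overlaps the noncoding gene ENSG00000289698 on its own strand. Of the 30-base stretches in the last 500 bases of the transcripts, the share also found in transcripts of other genes was 13.6% for TNFRSF10B, 9.43% for CASP8 and 6.66% for CFLAR, and below 4% for the other 5 genes. The gene that shared the largest number of the stretches of CASP8 was the same ENSG00000289698, whose level was not analysed here.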

How the data were processed

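RNA was measured in 5 control and 5 tunicamycin-treated HepG2 libraries by 3′ sequencing (QuantSeq). The authors mapped reads to hg19 with Ensembl transcript definitions in the nf-core RNA-Seq pipeline, left at its defaults, and deposited raw counts per gene, unfiltered; the aligner, counter and strand option are not named beyond that. Columns were matched to samples by library name. The series text states that replicates were done on separate days, which pairs libraries of the same number; their deviations from the condition means, over 9707 genes, had correlations of 0.361, 0.0149, 0.0669, 0.166 and 0.146 (replicate 1 first). Nothing states whether a replicate is an independent culture beyond the separate day.

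Low genes were removed with filterByExpr (minimum count 2, minimum total 10), and the remaining counts were scaled by TMM and tested by the quasi-likelihood method of edgeR version 4.0.16 under R version 4.3.3, with condition as the only term and Benjamini-Hochberg adjustment at 0.05. The standard error is the absolute log2 fold change divided by the square root of F. Log2 ratios within pairs, r values and exact permutation tests used a pseudocount of 0.5. Alternatives were DESeq2 1.42.0, its size factors, library size only, no filter, default filter minimums, the replicate block in edgeR and DESeq2, thinning to the smallest library, removal of mitochondrial genes and leaving out each library. Scripts were tested on simulated data. The 8 genes and all lists were chosen with earlier results of these data known. Named genes are the 8, the genes of the pathway lists, HSPA5, DDIT3 and the 3 genes most correlated with TNFRSF10B; RHOBTB2, CELA2B, CFLAR-AS1 and TNFRSF10A-AS1 were added because their exons overlap. PIDD1 and GSDME are listed in the table as PIDD and DFNA5. Some genes of these pathways are not reported here, and the lists were counted without them. PECAM1, another marker of the lists, was not analysed here. RefSeq start regions of the TNFRSF10 genes were not used here.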

Additional observations from a re-analysis of the deposited data

Results flagged for a closer look

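CASP4 in tunicamycin replicate 1, with 222 normalized counts, lay apart from the other 4 tunicamycin libraries (191.5 to 199.2), a gap that was 0.749 of the whole range. It is 1 of 20 groups of 5 values checked (the 8 genes, library totals and mitochondrial shares in each condition), where chance gives about 1. Without this library the log2 fold change of CASP4 was 0.27 (adjusted p = 0.0594). Its cause was not tested.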

How the results depend on the processing

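The calls of TNFRSF10B, TNFRSF10D and CASP8 were kept in all 19 alternatives, with log2 fold changes of 0.83 to 1.06, 0.41 to 0.60 and 0.49 to 0.66. CASP4 kept its call in 15 and CASP9 gained one in 6, as given with each gene; with the replicate block 5 of the 8 genes were called in edgeR and 4 in DESeq2, and no call among the 8 changed beyond those of CASP4 and CASP9. With library size only, 1 of the 8 genes was called lower (CFLAR) against 0, and 40.8% of all called genes were higher against 51.4%. After thinning, 4 pathway genes were called lower against 7, since TNFRSF10C, CASP6 and BIRC6 lost their calls. The sign of changes near 0 turned for TNFRSF10A with library size only (-0.0314), after thinning (-0.00090) and without 1 library (range -0.058 to 0.10 over the fits that left one out), and for FAS after thinning (0.0714) and without 1 library (-0.15 to 0.055). The causes were not tested. Counts were few for genes such as CASP9, FAS, TNFRSF10C, DFFB, DIABLO and the ligands.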
